A study of Homo sapiens with 12 samples.

Results

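The respiratory chain assembly factors, 54 nuclear-encoded proteins that help to build complexes I to V of the inner mitochondrial membrane, were examined in RNA-seq of HCT116 cells after silencing of hnRNP U. The genes were chosen by name as known assembly factors, matched to the Ensembl identifiers of the count table through GENCODE, and all 54 were found among its 62656 genes. They comprise 17 factors of complex I, 4 of complex II, 6 of complex III, 24 of complex IV and 3 of complex V. All 54 passed the filter on low counts that left 15920 genes for testing.

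HCT116 is an established human colorectal carcinoma cell line, labelled as wild type in the control samples. Cells were transfected for 48 h with a control siRNA (Ctr) or with siRNA against HNRNPU, which encodes the RNA-binding protein hnRNP U, and no sample was left without siRNA. From each culture, total RNA and heavy polysomal (HP) RNA, the RNA sedimenting with many ribosomes, were sequenced as poly(A)-selected libraries. There were 3 libraries in each of the 4 groups, 12 in all, numbered by experiment. The study asked how hnRNP U, which binds mRNAs with RNA G-quadruplexes (RG4s, stacks of guanines), acts on the translation of nuclear-encoded mitochondrial mRNAs. The sources used here do not say which hnRNP U siRNA sequence these libraries received, so effects of the protein and of 1 siRNA cannot be told apart. P-values measure the spread between these 3 experiments.

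Assembly factors are not part of the finished enzymes. They are made in the cytosol, imported into mitochondria, and there stabilise subunits, insert haem, flavin, iron-sulphur or copper cofactors, and join modules into a complex. Because several subunits of complexes I, III, IV and V are made inside mitochondria from mitochondrial DNA, many factors act at the meeting point of both genomes, and loss of single factors is known to cause isolated deficiency of a complex in patients. Cytochrome c oxidase, complex IV, needs the most factors of the chain, among them enzymes of haem A synthesis and carriers of copper, and many of these are very small proteins.

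The 12 libraries held 30305012 to 39761103 counts assigned to genes. HNRNPU fell from 1028 ± 67.9 to 159 ± 9.47 CPM in total RNA (SD, n = 3; CPM are counts scaled to the TMM-adjusted library size, used for all levels) and from 1080 ± 61.5 to 78.3 ± 3.71 CPM in HP RNA. Of 7 markers of epithelial colon cells, 6 were detected in every group (KRT8 at 1780 ± 86.3 CPM with control siRNA), and VIL1 was at or near 0. The 9 markers of leukocytes, fibroblasts, endothelium and hepatocytes summed to 16.5 to 17.9 CPM in total RNA with control siRNA and 9.74 to 10.8 CPM with hnRNP U siRNA. Nearly all of this was COL1A1, while DCN and PDGFRA were at 0, and the part of these markers in the results below was not tested. Genes of the mitochondrial genome took 11.2% ± 0.3 of counts in total RNA with control siRNA, 9.26% ± 0.432 with hnRNP U siRNA, and 1.05% ± 0.184 and 1.24% ± 0.0493 in HP RNA.

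RG4 motifs are the sequence feature that the study followed, and they were sought in the assembly factor transcripts. A motif was 4 runs of at least 3 G separated by loops of 1 to 7 nt, sought on the RNA strand of GENCODE 44 transcripts. At least 1 transcript of 13 members held it (24.1%), against 39.9% of 15918 genes. In the canonical transcript alone, 4 members held it (7.41%, against 24% of genes), and with loops of up to 12 nt 24 did (44.4%, against 58.1%). These shares were not tested, and the members' messages are short, with a median coding length of 585 nt against 1413 nt for all protein-coding genes tested and a median 3′ UTR of 791 nt against 1319 nt. The motifs of 3 of these canonical transcripts are shown because the study's question would pick them out among these genes. They lie on GRCh38 in the 3′ UTRs of CMC2 (chr16:80968510-80968535 and chr16:80973259-80973284, minus strand), COA7 (chr1:52684782-52684799, minus strand) and PET100 (chr19:7631747-7631775 and chr19:7631822-7631849, plus strand). Sites are numbered by rising coordinate, so those of CMC2, on the minus strand, are listed from the 3′ end of the mRNA. Each motif reads 5′ to 3′ along the mRNA as follows, with DNA letters and the G runs in capitals.
CMC2, first site: GGGGGGaggatGGGagttGGGGaGGG
CMC2, second site: GGGGcaGGGGGtaaaGGGGtgaGGGG
COA7: GGGtGGGGGaGGGGaGGG
PET100, first site: GGGtcctgaGGGGtgagcaGGGGttGGGG
PET100, second site: GGGGtcagccaGGGGGaGGGctcaaGGG

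In total RNA, 26 of the 54 assembly factors rose after silencing of hnRNP U and 6 fell (edgeR's quasi-likelihood test, Benjamini-Hochberg adjusted p below 0.05). Among all genes tested, 28.0% rose and 29.3% fell, 57.3% in either direction, so the share of members called, 59.3%, was near the background. By direction the shares were 48.1% of members higher and 11.1% lower. The median log2 fold change of the members was 0.11, beside 0.000 for all genes. The changes were small, since only SDHAF2 and COX16 were called with a log2 fold change of 0.5 or more in size, as 22.5% of all genes were. The 3 libraries of each siRNA did not overlap for 36 members, beside 62.0% of all genes. In bulk RNA, a change in the share of cells that express a gene and in its level per cell cannot be told apart.

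In HP RNA, 27 members rose and 8 fell by the same test, 64.8% of the list, where 25.5% of all genes rose, 26.3% fell and 51.7% changed in either direction. By direction, 50% of members were higher and 14.8% lower. The median log2 fold change was 0.15, beside 0.01 for all genes. In HP RNA, 5 members were called with a log2 fold change of 0.5 or more in size, as 23.5% of all genes were. The 5 members were BCS1L and COA4 upward and COX16, NDUFAF6 and UQCC2 downward. The 6 libraries were apart by siRNA for 39 members, beside 58.3% of all genes. Side by side, 23 members rose in both kinds of RNA, 5 fell in both (COA8, COX16, NDUFAF6, PET117 and UQCC2), and 15 passed the test in neither. No member was called in opposite directions. Summed over the list, the members took 1734 ± 23.2 CPM of total RNA with control siRNA and 1955 ± 28.3 CPM with hnRNP U siRNA (SD, n = 3), and 1874 ± 20.8 and 2142 ± 56.3 CPM of HP RNA. No test was run on these sums.

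**Figure D1:**
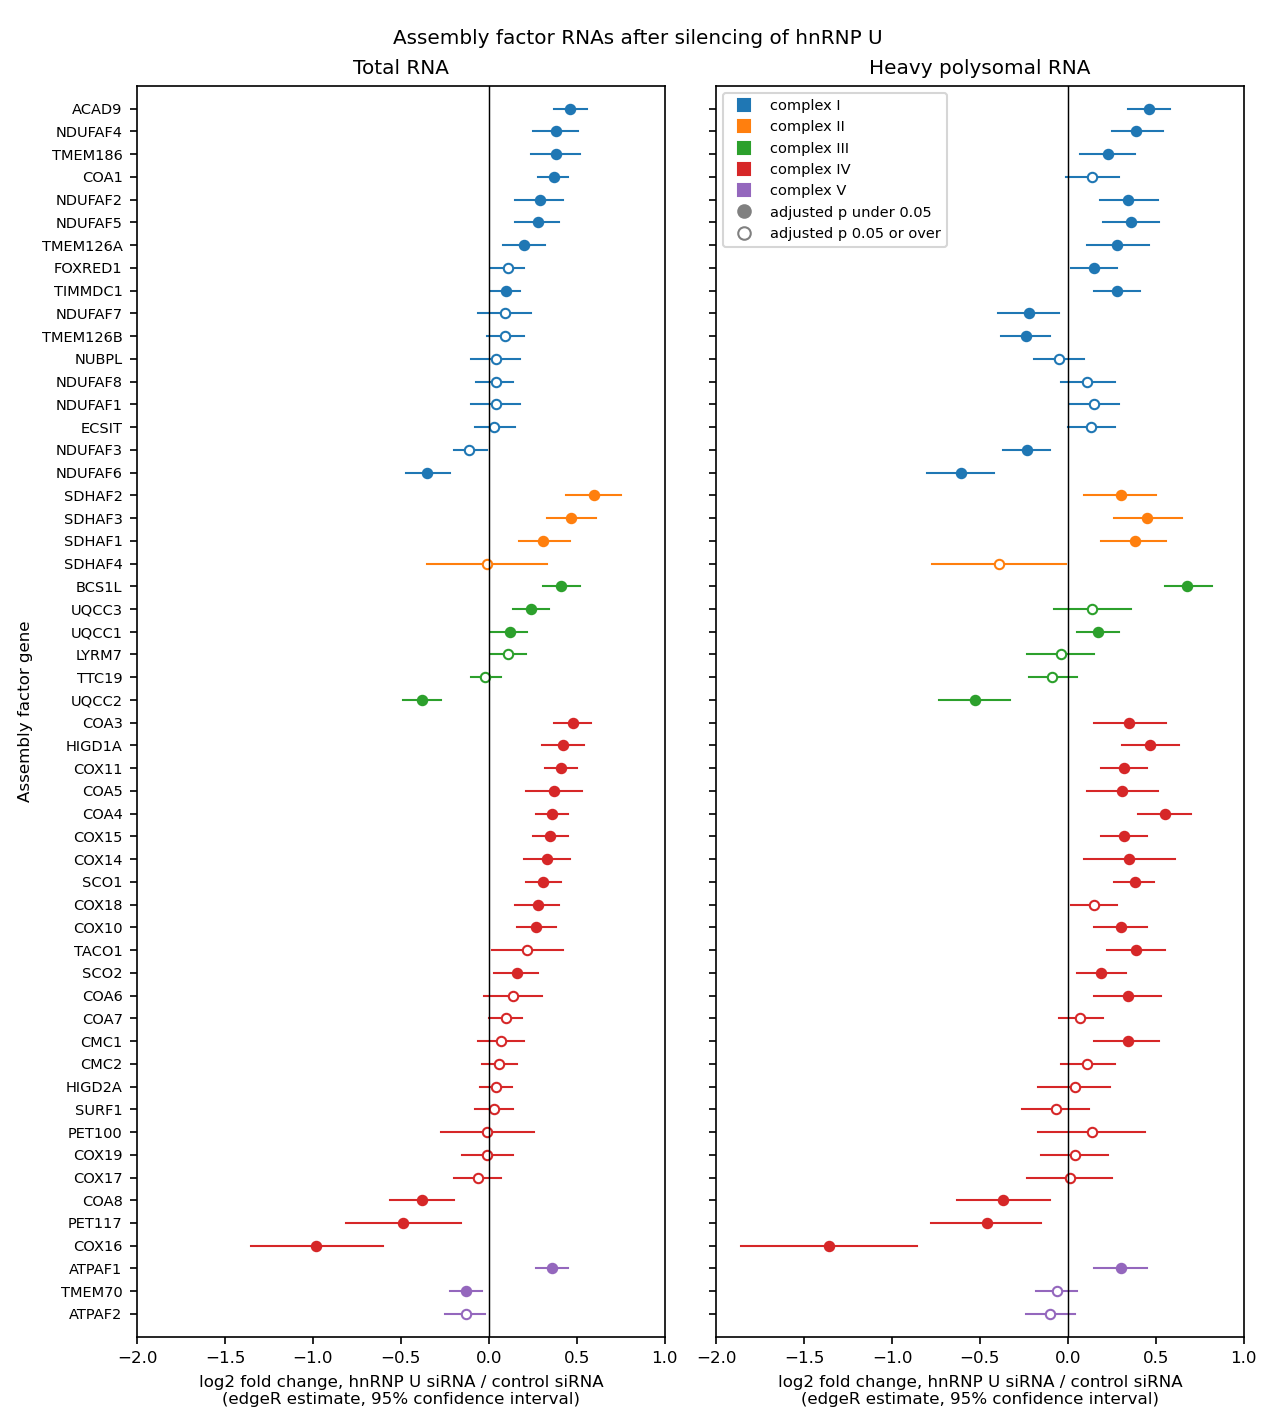
Each row is an assembly factor gene, grouped and coloured by complex, with its log2 fold change after silencing of hnRNP U, relative to the control libraries (x axis), in total RNA on the left and HP RNA on the right. Points are edgeR estimates from 3 against 3 libraries, lines are 95% confidence intervals, and filled points have an adjusted p under 0.05 (26 higher and 6 lower in total RNA, 27 higher and 8 lower in HP RNA).

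Complex I is assembled from modules, and its 17 factors moved in both directions. In total RNA 8 rose and NDUFAF6 fell, and in HP RNA 8 rose and 4 fell, with medians of 0.10 and 0.15. By share, 52.9% were called in total RNA, near the 57.3% of all genes, and 70.6% in HP RNA, beside 51.7% of all genes. The MCIA complex, which builds part of the membrane arm, is represented by 6 genes, of which 3 rose in total RNA, and 2 rose and TMEM126B fell in HP RNA. Its share called, 50% in each, was near that of all genes. Its largest increase was that of ACAD9, a member of the acyl-CoA dehydrogenase family. ACAD9 (chromosome 3, 128879596 to 128924003) had 44.9, 45.6 and 42 CPM in total RNA with control siRNA and 60.9, 61.3 and 60.9 CPM with hnRNP U siRNA. Its HP RNA levels were 59.9, 66.6 and 66 CPM and then 89.3, 92.6 and 89 CPM. The silenced libraries were the higher ones in both kinds of RNA, with a log2 fold change of 0.46 in each (SE 0.045, adjusted p = 1.9e-07 in total RNA, and SE 0.058, adjusted p = 3.1e-06 in HP RNA). TMEM186 rose too (0.38 in total RNA and 0.23 in HP RNA), whereas COA1 rose in total RNA (0.37, adjusted p = 1.5e-06) and had 0.14 in HP RNA (adjusted p = 0.1, or 0.04 with the experiment as a block). Genes on the opposite strand, ABAT and PMM2, cover 30.7% of the exon length of TMEM186. NDUFAF1, the founding MCIA factor, and ECSIT were not called in either, although with the experiment as a block they had adjusted p = 0.025 and 0.039 in HP RNA (0.15 and 0.13).

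TMEM126B is an MCIA protein needed for the ND2 module. It had 49.5, 45.5 and 42.8 CPM in total RNA with control siRNA and 48.7, 49.3 and 49.5 CPM with hnRNP U siRNA, and these overlapped. In HP RNA it had 45.6, 45.4 and 41.1 CPM and then 39.8, 37.3 and 37.1 CPM, so that every silenced library was below every control library. It fell by 0.24 on the log2 scale in HP RNA (SE 0.066, adjusted p = 0.005) and had 0.09 in total RNA (adjusted p = 0.12).

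Among the factors of the Q module and the membrane arm, NDUFAF6 fell furthest. This gene (chromosome 8, 94895533 to 95116455) encodes a protein related to phytoene synthases that is needed early in complex I assembly. It had 21.9, 21.7 and 20.8 CPM in total RNA with control siRNA and 17.7, 16.6 and 16.5 CPM with hnRNP U siRNA. In heavy polysomes it had 20.8, 17.1 and 19.3 CPM and then 13.7, 12.1 and 12.4 CPM. The groups did not overlap in either, and the log2 fold changes were −0.35 (SE 0.059, adjusted p = 8.9e-05) and −0.61 (SE 0.090, adjusted p = 1.8e-05). NDUFAF3, a partner of NDUFAF4 in the Q module, fell in HP RNA (−0.23, adjusted p = 0.0045) and had −0.11 in total RNA (adjusted p = 0.055, or 0.032 with the experiment as a block). NDUFAF4 rose in both (0.38 and 0.39), so that this pair of interacting factors moved in opposite directions in HP RNA. NDUFAF5, which hydroxylates an arginine of a core subunit, rose in both (0.28 and 0.36), while its partner NDUFAF8 passed in neither (0.04 and 0.11). NDUFAF7, an arginine methyltransferase of the complex, had −0.22 in HP RNA (adjusted p = 0.03) and 0.09 in total RNA (adjusted p = 0.3). TIMMDC1, a membrane-arm factor, rose by 0.28 in HP RNA (adjusted p = 0.0012) and by 0.10 in total RNA (adjusted p = 0.047).

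The late-acting chaperone NDUFAF2 and the ND4-module factor TMEM126A rose in both kinds of RNA, by 0.29 and 0.20 in total RNA and by 0.34 and 0.28 in HP RNA. The flavoprotein FOXRED1 had 0.11 in total RNA (adjusted p = 0.063) and 0.15 in HP RNA (adjusted p = 0.044). NUBPL, which supplies iron-sulphur clusters to complex I, had 0.04 and −0.05, within the spread of its libraries.

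Complex II, succinate dehydrogenase, has its subunits encoded in the nucleus alone, and 3 of its 4 factors rose in both kinds of RNA, with list medians of 0.39 and 0.34. The share called was 75% in each, beside 57.3% of all genes in total RNA and 51.7% in HP RNA. SDHAF2 (chromosome 11, 61430042 to 61446733), which helps attach flavin to the catalytic subunit, had the largest increase of all members in total RNA. It had 8.35, 8.26 and 8.54 CPM with control siRNA and 12.8, 12.7 and 12.6 CPM with hnRNP U siRNA. Its HP RNA levels were 9.27, 11.8 and 10.5 CPM and then 13.2, 12.8 and 13.8 CPM. The groups did not overlap, and the log2 fold changes were 0.60 (SE 0.072, adjusted p = 2.6e-06) and 0.30 (SE 0.10, adjusted p = 0.015). Of its exon length, 44.8% is shared with ENSG00000256591 on the same strand, a gene with 0.481 and 0.248 CPM in total RNA. SDHAF1 and SDHAF3, which protect the iron-sulphur subunit, rose by 0.31 and 0.47 in total RNA and by 0.38 and 0.45 in HP RNA. SDHAF4, which binds the flavinylated subunit, was expressed at a low level, from 1.71 to 4.2 CPM across the 12 libraries, and was not called (−0.01, 95% interval −0.35 to 0.33, in total RNA and −0.39, −0.77 to −0.01, adjusted p = 0.08, in HP RNA).

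For complex III, the cytochrome bc1 complex, 3 of 6 factors rose and UQCC2 fell in total RNA, and 2 rose and UQCC2 fell in HP RNA. That is 66.7% called in total RNA, beside 57.3% of all genes, and 50% in HP RNA, near the 51.7% of all genes. BCS1L (chromosome 2, 218658764 to 218663443) is an AAA-type ATPase that moves the folded Rieske iron-sulphur protein across the inner membrane into the complex. It had 29.6, 28 and 28.2 CPM in total RNA with control siRNA and 39.7, 37.2 and 37.5 CPM with hnRNP U siRNA. Heavy polysomes held 29.8, 32.6 and 29.7 CPM and then 51.8, 51.3 and 48.2 CPM. The silenced libraries were above all control libraries, by 0.41 (SE 0.050, adjusted p = 2.5e-06) and by 0.68 (SE 0.065, adjusted p = 1.1e-07), the latter a 1.6-fold rise and the largest of the 54 members in HP RNA. LYRM7, the chaperone that holds the Rieske protein before BCS1L acts, was not called (0.11, adjusted p = 0.06, or 0.041 with the experiment as a block, in total RNA and −0.04 in HP RNA).

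UQCC1, UQCC2 and UQCC3 work on the mitochondrially made cytochrome b, and they did not move together. UQCC2 (chromosome 6, 33694293 to 33711727) had 28.1, 29.8 and 29.4 CPM in total RNA with control siRNA and 21.7, 22.9 and 22.7 CPM with hnRNP U siRNA. The HP RNA levels were 26.1, 22.4 and 19.9 CPM and then 17.7, 15.2 and 15.5 CPM. No silenced library reached a control library, and UQCC2 fell by 0.38 (SE 0.053, adjusted p = 1.3e-05) and by 0.53 (SE 0.10, adjusted p = 0.00018) on the log2 scale. ITPR3 on the opposite strand shares 21.9% of its exon length and was not called (0.02 and −0.01). Its direct partner UQCC1 rose slightly, by 0.12 (adjusted p = 0.049) in total RNA and by 0.17 (adjusted p = 0.02) in HP RNA. UQCC3 rose in total RNA (0.24, adjusted p = 0.00051) and had 0.14 in HP RNA (adjusted p = 0.28). LBHD1 on the opposite strand shares 40.8% of the exon length of UQCC3 and was not called (−0.11 and −0.04). TTC19, which clears fragments of the Rieske protein from the finished complex and was abundant among the members (87.7 ± 3.74 CPM in control total RNA, SD, n = 3), had −0.02 and −0.09 and was not called.

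For complex IV, 11 of 24 factors rose and 3 fell in total RNA, and 13 rose and 3 fell in HP RNA, with medians of 0.15 and 0.25. Called in either direction were 58.3% in total RNA, near the 57.3% of all genes, and 66.7% in HP RNA, beside 51.7% of all genes. Both enzymes of haem A synthesis rose, COX10, the haem O synthase, by 0.27 in total RNA and 0.30 in HP RNA, and COX15, the haem A synthase, by 0.35 and 0.32. Of the 6 copper delivery factors, 3 rose in total RNA, COX11 (0.41, adjusted p = 3.8e-07), SCO1 (0.31, adjusted p = 3e-05) and SCO2 (0.16, adjusted p = 0.035), and COA6 joined them in HP RNA (0.34, adjusted p = 0.0035). Their share called was 50% in total RNA, near that of all genes, and 66.7% in HP RNA. COX17, the small chaperone that hands copper to SCO1, SCO2 and COX11, had −0.06 (95% interval −0.20 to 0.07) and 0.01 (−0.23 to 0.25). COX19 had −0.01 and 0.04. For SCO2, 26.1% of the exon length is shared with TYMP on the same strand and 62.1% with NCAPH2 on the opposite strand, and both of those had log2 fold changes below 0 (−0.23 and −0.21 in total RNA).

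Of the 7 genes that act on the mitochondrially made subunits COX1 and COX2, COA3 and COX14, which bind new COX1 and its translation machinery, rose in both kinds of RNA. COA3 had 24.5, 23 and 23.7 CPM in total RNA with control siRNA and 32.5, 33.1 and 33.6 CPM with hnRNP U siRNA, a rise of 0.48 on the log2 scale (SE 0.050, adjusted p = 5.6e-07), and it rose by 0.35 in HP RNA. The first was the largest increase of complex IV factors in total RNA, and the groups did not overlap. CMC1, which stabilises the same early intermediate, and TACO1, which activates COX1 synthesis, were called in HP RNA alone (0.34 and 0.39), with 0.07 and 0.22 in total RNA. For TACO1 the call in total RNA was borderline (adjusted p = 0.052, with the siRNA groups apart), and it passed under 8 of the 13 alternatives, at an adjusted p of 0.034 to 0.048. ENSG00000288894 on the same strand shares 40.9% of the exon length of TACO1 and was at 0 CPM in each group. Reads that could be given to either gene may thus be missing from the level of TACO1. COX18, which inserts COX2 into the membrane, was called in total RNA alone (0.28, against 0.15 and adjusted p = 0.055 in HP RNA, or 0.021 with the experiment as a block). For these genes the difference between the kinds of RNA did not pass its own test, the HP/total test described further on. The haem-insertion factor SURF1 was not called in either kind of RNA (0.03 in total RNA and −0.07 in HP RNA).

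COX16, which takes part in the maturation of COX2, had the largest change of all members. The gene (chromosome 14, 70325081 to 70416984) had 3.5, 3.01 and 2.32 CPM in total RNA with control siRNA and 1.59, 1.58 and 1.29 CPM with hnRNP U siRNA. In HP RNA it had 1.3, 1.88 and 1.52 CPM and then 0.569, 0.77 and 0.548 CPM, which are 19 to 25 counts in a library. The control libraries were higher in each case, and the log2 fold changes were −0.98 (SE 0.18, adjusted p = 0.00017) and −1.36 (SE 0.24, adjusted p = 0.00012). Of its exon length, 37.8% belongs also to the read-through gene SYNJ2BP-COX16 on the same strand, which had at most 0.00961 CPM as a group mean, so that reads that could be given to either gene may be missing from the level of COX16.

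The other 9 complex IV factors include several small proteins of the intermembrane space with paired cysteine motifs. COA4 (chromosome 11, 73872667 to 73876901) had 52.8, 52.2 and 50.5 CPM in total RNA with control siRNA and 67.4, 67.8 and 64.7 CPM with hnRNP U siRNA. Its HP RNA levels were 24.7, 29.6 and 28.6 CPM and then 42.7, 41.3 and 40.6 CPM. The groups did not overlap, and it rose by 0.36 (SE 0.043, adjusted p = 2.1e-06) and by 0.55 (SE 0.072, adjusted p = 5e-06). COA5 rose by 0.37 and 0.31, and HIGD1A, a hypoxia-inducible regulator of the enzyme, by 0.42 and 0.47. HIGD2A, a paralogue of HIGD1A, had 0.04 in each, and CMC2, COA7 and PET100 were not called in either. COA8 fell by 0.38 (adjusted p = 0.0012) in total RNA and by 0.37 (adjusted p = 0.021) in HP RNA. PET117 fell by 0.49 (adjusted p = 0.013) and by 0.46 (adjusted p = 0.015), but 78.3% of its exon length is shared with KAT14 on the same strand, a gene that rose by 0.45 and 0.44, and its own level was 1.86 to 3.47 CPM. HIGD1A has 17 annotated pseudogenes and NDUFAF4 has 4, so that reads of near-identical copies are uncertain for them. Opposite-strand genes cover 42.3% of the exon length of COA3 (WNK4) and 33.4% of that of CMC1 (AZI2).

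**Figure D2:**
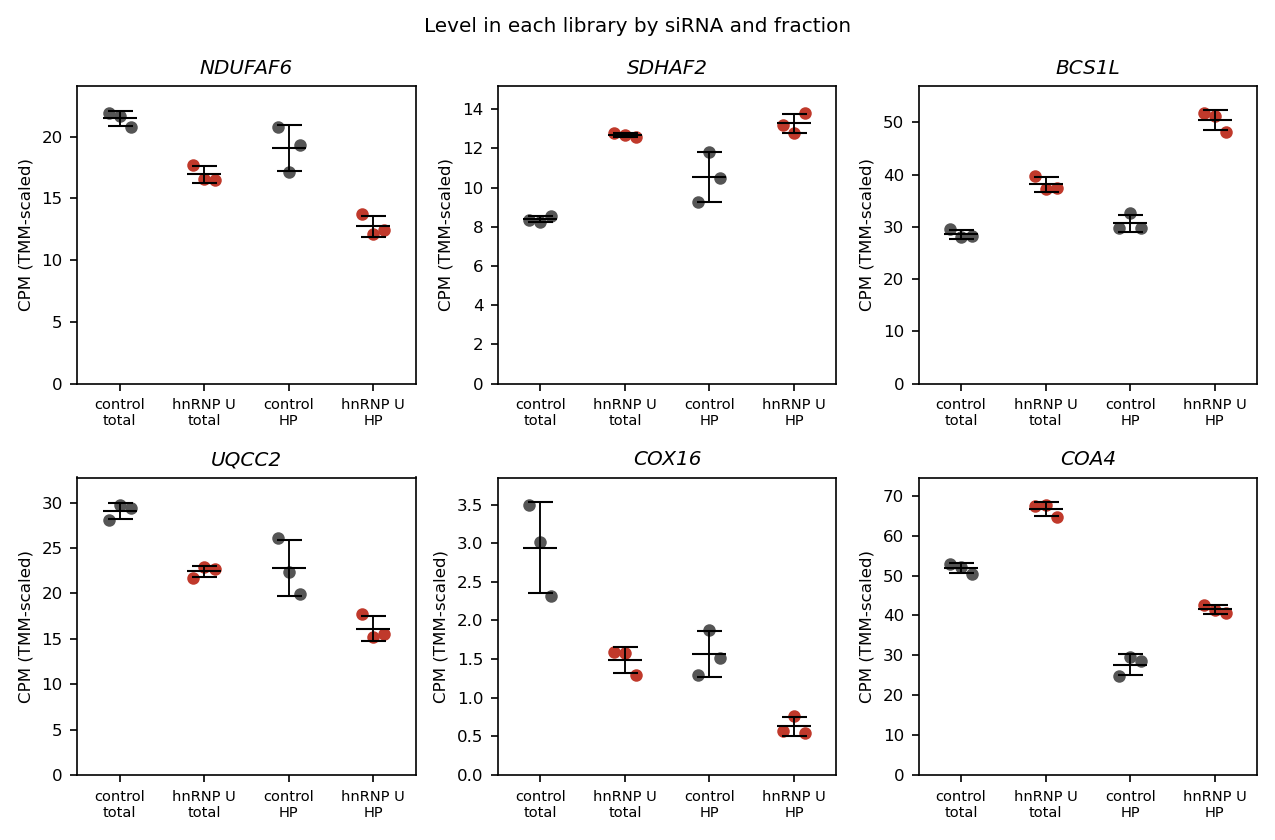
Each panel gives the CPM (y axis, from 0) of 1 gene in the 12 libraries by siRNA and fraction (x axis), with control siRNA in grey, hnRNP U siRNA in red, and the mean and SD of 3 libraries in black. The panels show the 6 members that were called with a log2 fold change of 0.5 or more in size in total or HP RNA, and in none of them do the siRNA groups overlap within a fraction.

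For complex V, ATP synthase, ATPAF1, the chaperone of the beta subunit, rose in both kinds of RNA. It had 54.8, 55.4 and 53.7 CPM in total RNA with control siRNA and 68.8, 71.9 and 70.1 CPM with hnRNP U siRNA, which is 0.36 on the log2 scale (SE 0.042, adjusted p = 1.6e-06). The rise in HP RNA was 0.30 (SE 0.070, adjusted p = 0.0016). ATPAF2, the chaperone of the alpha subunit, had −0.13 (adjusted p = 0.051, or 0.046 with the experiment as a block) and −0.10 (adjusted p = 0.22). TMEM70, which promotes assembly of the membrane ring, fell by 0.13 (adjusted p = 0.018) in total RNA and had −0.06 in HP RNA (adjusted p = 0.35).

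The calls of 5 members in total RNA (TIMMDC1, UQCC1, SCO2, TMEM70 and PET117) ended when 1 library was left out, at an adjusted p of 0.054 to 0.19. In HP RNA this held for 10 (TMEM186, NDUFAF7, FOXRED1, SDHAF2, UQCC1, SCO2, COX14, COA5, COA8 and PET117; 0.05 to 0.24), 8 of them when replicate 1 of control HP RNA was left out. With DESeq2, TIMMDC1 (adjusted p = 0.067), UQCC1 (0.074) and SCO2 (0.064) did not pass in total RNA. NDUFAF7 (0.053) and FOXRED1 (0.057) did not pass with it in HP RNA. Of the 13 alternatives, 9 ended the total RNA call of TIMMDC1, 8 that of UQCC1 and 6 that of SCO2. In HP RNA, 7 ended the call of FOXRED1 and 6 that of NDUFAF7.

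The subunits of the same complexes were compared with their assembly factors. Of 37 nuclear-encoded complex I subunits, 10 rose and 10 fell in total RNA, with a median log2 fold change of 0.03, and 9 rose and 8 fell in HP RNA (median −0.002). Of 41 nuclear-encoded subunits of complexes II to V, 5 rose and 7 fell in total RNA, and 5 rose and 6 fell in HP RNA (medians −0.02 and 0.02). Of the 13 mitochondria-encoded subunits, 2 rose and 9 fell in total RNA (median −0.47), and 4 rose and 5 fell in HP RNA (median −0.02). A further list of 13 assembly factors, not among the 54, had 7 higher and 2 lower in total RNA (median 0.29) and 6 higher and 2 lower in HP RNA (median 0.32). Among all genes tested, 28.0% rose and 29.3% fell in total RNA, and 25.5% rose and 26.3% fell in HP RNA. Called in either direction were 57.3% of all genes in total RNA and 51.7% in HP RNA. The same shares were 54.1% and 45.9% for complex I subunits and 29.3% and 26.8% for those of complexes II to V. They were 84.6% and 69.2% for the mitochondria-encoded subunits and 69.2% and 61.5% for the further factors. These lists, like the members, were chosen with earlier results of these data known, and no test of the lists against each other was made.

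HP/total, the ratio of HP RNA to total RNA, was compared between the siRNAs as an interaction term in 1 model of the 12 libraries. No member passed the edgeR test at an adjusted p under 0.05, where 0.163% of all genes did, and DESeq2 called 0 as well. At an unadjusted p under 0.05 there were 9 members, beside 7.04% of all genes. The log2 changes ran from −0.35 to 0.30 with a median of 0.05, beside 0.04 for all genes. Because libraries were scaled to each other, a change common to most mRNAs would not be visible in this ratio.

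The 6 members with the lowest unadjusted p in HP/total were BCS1L, TMEM126B, NDUFAF7, TIMMDC1, COA4 and CMC1. BCS1L had 0.30 (SE 0.079, unadjusted p = 0.0011, adjusted p = 0.24) and was positive in each experiment (0.37, 0.24 and 0.29). TMEM126B had −0.31 (SE 0.084, unadjusted p = 0.0015, adjusted p = 0.29) and was negative in each (−0.17, −0.4 and −0.35). With the experiment as a block TMEM126B passed (adjusted p = 0.046) and BCS1L did not (adjusted p = 0.065), and with the culture as a block both did (0.02 and 0.038). Of all 15920 genes, 78 passed with the experiment as a block and 140 with the culture as a block, against 26 with no block. Over the alternatives tried without a block, the adjusted p of TMEM126B ran from 0.025 (no filter on low counts) to 0.58 and that of BCS1L from 0.09 to 0.75. NDUFAF7 had −0.28 (adjusted p = 0.48), TIMMDC1 0.21 (0.5), COA4 0.22 (0.51) and CMC1 0.29 (0.51). COX16 and SDHAF4 had the lowest estimates (−0.35 each), with 95% intervals of −0.99 to 0.29 and −0.88 to 0.18. Of the 13 mitochondria-encoded subunits, 5 were higher in HP/total, and 0 of the 37 and 0 of the 41 nuclear-encoded subunits passed. All 13 mitochondria-encoded subunits were lower in HP RNA than in total RNA with either siRNA, 12 of them by 0.5 or more on the log2 scale. The median log2 ratio was −3.74 with control siRNA and −3.22 with hnRNP U siRNA, and the ratio nearest to no change was −0.38 and −0.27.

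**Figure D3:**
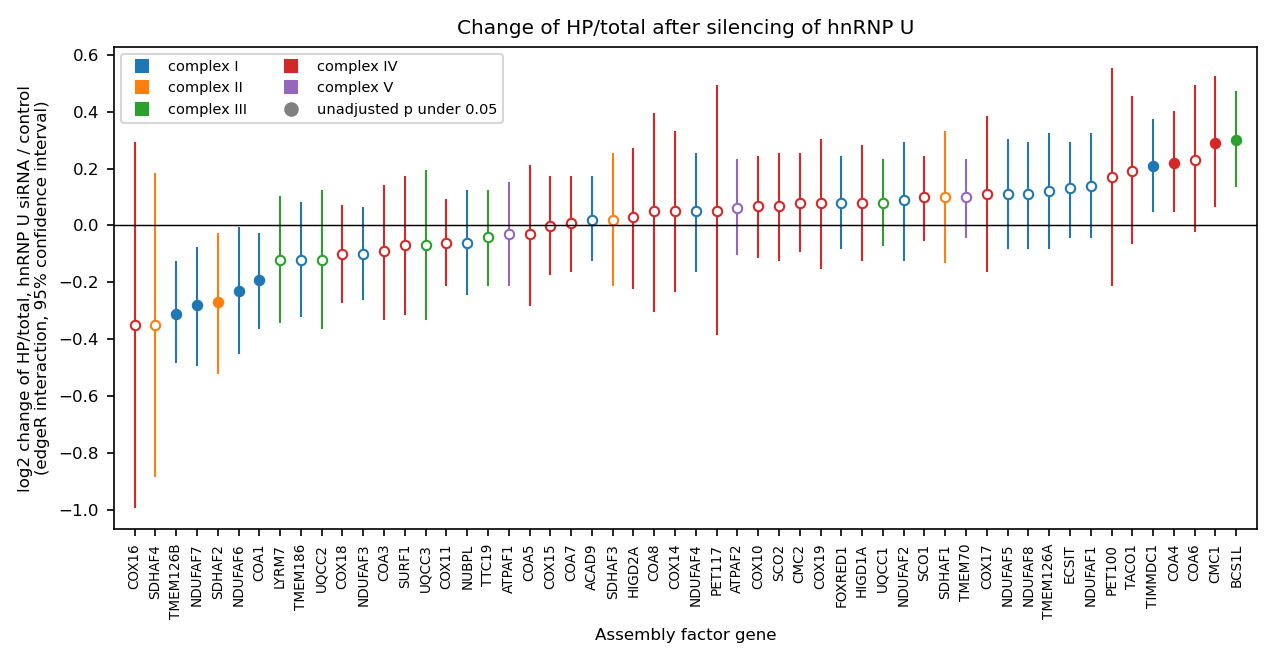
The log2 change of HP/total after silencing of hnRNP U (y axis) is given for the 54 genes in ascending order (x axis), coloured by complex, as edgeR's interaction estimate over 12 libraries with its 95% confidence interval. Filled points are the 9 members with an unadjusted p under 0.05, and no adjusted p was under 0.05.

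In control cells, HP RNA differed from total RNA for most assembly factors. Of the 54, 21 were higher in HP RNA and 21 were lower (77.8%), where 33.1% of all genes were higher, 32.0% lower and 65.1% in either direction. The 5 highest were SCO2 (log2 ratio 0.89), NDUFAF1 (0.80), and NDUFAF3, FOXRED1 and TMEM186 (0.72 each). The 5 lowest were COX17 (−1.20), NDUFAF8 (−1.16), COX14 (−1.15), HIGD2A (−0.92) and COA4 (−0.90). COX17 had 19.4, 18.6 and 17.4 CPM in total RNA and 7.11, 9.6 and 7.46 CPM in HP RNA, and NDUFAF1 had 18.4, 18.1 and 18.9 CPM in total RNA and 32.8, 32 and 31.8 CPM in HP RNA. These genes had like levels in total RNA, and their levels in HP RNA did not overlap. By complex, the median log2 ratio was 0.15 for complex I, −0.23 for complex II, −0.13 for complex III, −0.38 for complex IV (7 higher, 13 lower) and 0.50 for complex V (3 of 3 higher).

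With hnRNP U siRNA, 22 members were higher in HP RNA and 19 lower (75.9%), where 34.4% of all genes were higher, 33.7% lower and 68.1% in either direction. The median was −0.06 with either siRNA. Side by side, 20 members were higher with both siRNAs, 17 lower with both, and none was called in opposite directions. SDHAF2 was called with control siRNA alone (0.33 and 0.04), as were CMC1, COA6, PET100 and TMEM126A, while BCS1L (0.10 and 0.38), TIMMDC1 (0.09 and 0.27), NDUFAF6 (−0.17 and −0.43) and TMEM126B (−0.06 and −0.39) were called with hnRNP U siRNA alone, and the differences between the siRNAs are those of HP/total above. With the experiment as a block, NDUFAF6 (adjusted p = 0.022), COX10 (0.028) and COA8 (0.022) were also called with control siRNA, and NDUFAF7 (0.042), TMEM126A (0.042), COA6 (0.028) and PET100 (0.048) with hnRNP U siRNA. Leaving out 1 library ended the calls of TMEM126A, SDHAF4 and COA7 with control siRNA (adjusted p of 0.058 to 0.17) and of COA7 with hnRNP U siRNA (0.11 to 0.18).

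The ratio of HP to total RNA differed with the length of the coding sequence, whose part in the ratio was not tested. An mRNA with a short coding sequence has room for few ribosomes. Coding lengths were those of the canonical GENCODE transcript, 174 nt (COX14) to 1866 nt (ACAD9). Of the 18 members with the shortest coding sequences (174 to 348 nt), none was higher in HP RNA of control cells and 16 were lower, with a median log2 ratio of −0.67. The exceptions, PET117 (−0.10) and SDHAF1 (−0.05), were not called. Of the middle 18 (378 to 870 nt), 9 were higher and 5 lower (median 0.11), and of the longest 18 (894 to 1866 nt), 12 were higher and none lower (median 0.38). With hnRNP U siRNA the counts were 0 and 14, 9 and 4, and 13 and 1, with medians of −0.69, 0.10 and 0.41.

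All protein-coding genes tested showed the same order in these length ranges. In control cells the median was −0.63 for the 380 genes of 174 to 348 nt, of which 8.68% were higher and 70.3% lower. It was 0.15 for 2610 genes of 378 to 870 nt (45.1% higher, 27.7% lower), so the counts of the middle members were near this background, and 0.20 for 5190 genes of 894 to 1866 nt (49.3% higher, 21% lower). In silenced cells the medians of the same genes were −0.55, 0.14 and 0.20, with 9.47%, 46.7% and 50.5% higher and 69.2%, 28.1% and 21.7% lower, and the middle members were again near the background. Spearman's rho between coding length and log2 ratio was 0.75 over the 54 members in control cells and 0.71 in silenced cells, a description over genes that share the same libraries. Over 12758 protein-coding genes of any length it was −0.10 and −0.11. COA1 (441 nt, −0.87) was the lowest member outside the shortest group. Of the longest group, 6 were not called in control cells, and COX10 (1332 nt, −0.14), NDUFAF6 (1002 nt, −0.17) and NDUFAF5 (1038 nt, −0.09) had estimates below 0. The short group holds 13 of the 24 complex IV factors, among them small copper and cysteine-motif proteins such as COX17, COX19 and COA4. Coding length bore little relation to the change after silencing, with a rho of 0.08 in total RNA and 0.06 in HP RNA over the 54 members.

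**Figure D4:**
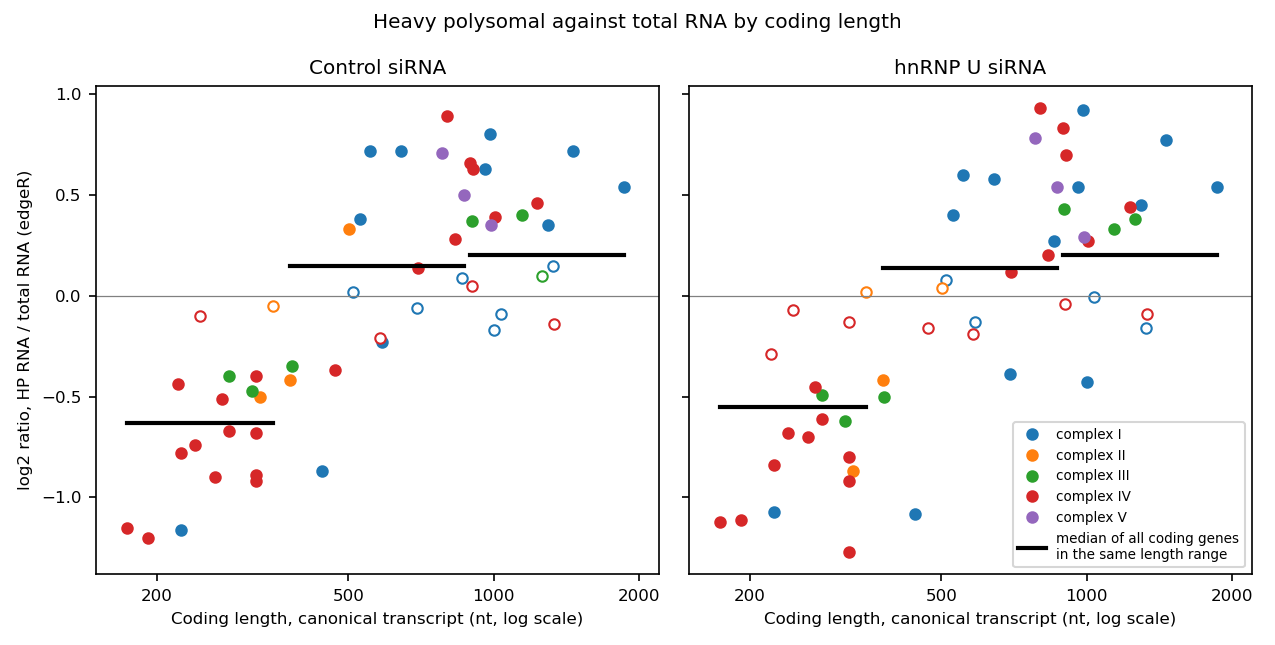
The log2 ratio of HP RNA to total RNA (y axis) is plotted against coding length (x axis, log scale) for the 54 genes with control siRNA on the left and hnRNP U siRNA on the right, coloured by complex and filled where the adjusted p was under 0.05. Black lines give the median of all protein-coding genes tested in the length ranges of the shortest, middle and longest 18 members (−0.63, 0.15 and 0.20 in control cells).

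Levels of the members per length differed widely in control total RNA. Per kb of merged exons, HIGD2A had the highest level (71.2 ± 1.24 CPM per kb, SD, n = 3), followed by NDUFAF8 (46.5 ± 2.42), NDUFAF3 (35.3 ± 0.66), TIMMDC1 (27.1 ± 0.57) and SURF1 (26.1 ± 0.862). For TIMMDC1 and SURF1 the ranges of mean ± SD overlapped. The lowest were COX16 (1.54 ± 0.308 CPM per kb), PET100 (1.66 ± 0.134), NDUFAF6 (1.74 ± 0.0491), CMC1 (1.82 ± 0.11) and NUBPL (2.00 ± 0.087), and each overlapped the next in mean ± SD. Merged exons of all transcripts can be far longer than the main mRNA (12.4 kb for NDUFAF6), which lowers these values.

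Members with and without an RG4 motif were set side by side. Among all genes tested, 28.0% rose and 29.3% fell in total RNA, and 25.5% rose and 26.3% fell in HP RNA. Of the 13 with a motif in any transcript, 4 rose and 2 fell in total RNA (median 0.09), and 5 rose and 3 fell in HP RNA (median 0.11). Of the 41 without, 22 rose and 4 fell in total RNA (median 0.20), and 22 rose and 5 fell in HP RNA (median 0.23). In HP/total the medians were −0.03 and 0.05, and in HP against total RNA of control cells 0.05 and −0.06. The 3 members with the motifs printed above were not called in total RNA or HP RNA. Their log2 fold changes in HP RNA were 0.11 for CMC2, 0.07 for COA7 and 0.14 for PET100. Of the members that fell, UQCC2 and NDUFAF6 carry the motif in annotated non-coding transcripts and NDUFAF7 in a 5′ UTR and a non-coding transcript, while COX16, COA8, PET117, TMEM70, TMEM126B and NDUFAF3 carry none.

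Matches of 7 nt to the seeds of the study's siRNAs, with the listed strand taken as the sense strand, were sought in 3′ UTRs of canonical transcripts, on the RNA strand. For hnRNP U siRNA 1 (GTATGCT) 3 members held a match (5.56%, against 7.31% of 12730 genes), COX11, CMC1 and COX18, which had 0.41, 0.07 and 0.28 in total RNA. For hnRNP U siRNA 2 (TTGTAGT) 6 did (11.1%, against 13.1%), and for the control siRNA (CCCAAAT) 7 did (13%, against 15.2%). None of the members that fell in total RNA or HP RNA held a match to either hnRNP U siRNA.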

How the data were processed

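The authors trimmed single-end reads, aligned them to hg38 with STAR and deposited the raw counts for GENCODE release 43 genes. For STAR, the version and the strand setting of the counts are not given in the sources used here, so reads of genes that overlap on opposite strands may not be told apart. The counts held 62703 identifiers. Those that repeat without their version suffix were kept once, which left 62656 genes. Names, coordinates on GRCh38 and transcripts came from GENCODE 44, in which 62639 of these genes were found.

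Counts were filtered with filterByExpr (minimum count 10 over the 4 conditions) and compared with edgeR 4.0.16 in R 4.3.3 (TMM scaling, the quasi-likelihood test, and p-values adjusted by Benjamini-Hochberg across 15920 genes, threshold 0.05), on the 6 libraries of each comparison, or all 12 for HP/total, with no block. CPM use the same scaling. SDs are between experiments, and reads carry no molecular identifiers. Same-numbered libraries deviated together from their group means (r of 0.147 to 0.519 for all 12 pairs, over 9348 genes), and sample titles share an experiment prefix, so experiment numbers pair the samples.

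The members and lists were chosen with earlier results of these data known. All 54 members may be named. Values per library are given for those called in total or HP RNA with a log2 fold change of 0.5 or more in size, for extremes of each complex and for leading members of the other comparisons. The description by coding length was added after the ratios of HP to total RNA had been seen. Alternatives were DESeq2 1.42.0, its size factors, upper-quartile factors, no filter, a minimum of 50 counts, a joint fit of the 12 libraries, a block for the experiment or the culture, omission of each library, and RG4s in canonical transcripts or with longer loops. The RG4 sequence of 1 canonical transcript is not reported here. The fits were tested on simulated data.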

Additional observations from a re-analysis of the deposited data

How the results depend on the processing

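Calls in total RNA and HP RNA kept their direction under all alternatives tried, with 29 to 36 members called in total RNA and 28 to 40 in HP RNA against 32 and 35, and 27 and 25 of these calls held under every one of the 13 alternatives. In HP/total, where no member was called, 1 (TMEM126B, lower) passed with no filter on low counts and 1 (TMEM126B, lower) when the experiment was a block, and 2 (BCS1L, higher, and TMEM126B, lower) with the culture as a block. The same fits called 61 (of 33110), 78 and 140 (each of 15920) of all genes, against 26 of 15920 in the fit reported above. The blocked fits otherwise added the calls given in the report, ended none and changed no other call. The median of the members in HP/total, 0.05, was −0.01 with no filter, and −0.03 to 0.06 when each library was left out. The median ratio of HP to total RNA, −0.06 with either siRNA, was −0.14 with upper-quartile factors for either siRNA and −0.12 (control) and −0.13 (hnRNP U) with a minimum count of 50, and ran from −0.08 to −0.001 and from −0.08 to −0.03 over left-out libraries. Upper-quartile factors also moved the median of all genes to −0.11. RG4 motifs were held by 13 members, by 4 in canonical transcripts alone and by 24 with loops of up to 12 nt. The cause of these shifts was not tested. With 3 libraries a group, changes of low members such as COX16, PET100, PET117 and SDHAF4 had the widest intervals. Without replicate 1 of control HP RNA the calls of FOXRED1, SDHAF2, UQCC1, SCO2, COX14, COA5, COA8 and PET117 ended (adjusted p of 0.05 to 0.17).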
